A study of Mus musculus with 6 samples.

Results

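Collagen genes were followed through early forebrain development in mice without the zinc-finger transcription factors Fezf1 and Fezf2, which act in the embryonic forebrain, and in wild-type mice. The members are the 42 genes whose symbol is Col, a number, a and a number in the platform's annotation of probe sets with a single symbol, out of 18194 such genes. Each gene was read from the probe set with the highest mean of the deposited values over the 6 arrays, without use of genotype or age labels. Those values were not scaled between arrays. The arrays of embryonic day 12.5 had the highest medians, so that age weighed more in the choice. The tissue was the rostral forebrain as far back as the lateral ventricles reach, dissected by hand, and its RNA was read on Affymetrix mouse arrays. The groups were Fezf1-/- Fezf2-/- embryos (KO) and wild-type embryos (WT), each taken on embryonic day 9.5, 10.5 or 12.5 (E9.5 to E12.5 below), with 1 array per group. The labels do not give the strain, the kind of mutation or the number of embryos behind an array. The labels describe 1 dissection for both genotypes and do not say whether surface ectoderm and mesenchyme were removed.

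Collagens are extracellular proteins whose chains carry repeats of glycine followed by residues that are often proline and hydroxyproline, and wind together into a triple helix. Fibrillar types such as I, II, III, V and XI form the fibres of connective tissue and cartilage, type IV forms the meshwork of basement membranes, and fibril-associated types such as IX, XII and XIV decorate fibres. Around the early forebrain, head mesenchyme and vessels lay down fibrillar collagen, and the neural wall rests on a basement membrane rich in type IV collagen, type XVIII collagen and laminins.

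Values below are probe set signals after quantile normalization across the 6 arrays, on a linear scale. Differences and changes are on the log2 scale after a pseudocount of 6.50 was added, which understates the change of dim genes. The median signal was 24.0. Of the 42 collagen genes, 27 passed the filter on dim genes (mean log2 value above the median of all probe sets) and were tested with 11091 genes in all. The other 15 were not tested, and 12 genes never exceeded 24.0 on any array. Signals of different probe sets cannot be compared as amounts of RNA, so each gene is compared with itself.

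The labels were checked on Fezf1 and Fezf2, which they name as knocked out. Fezf2 read 0.458 in KO and 78.9 in WT at E9.5, 0.904 in KO and 146 in WT at E10.5, then 1.66 in KO and 249 in WT at E12.5. Fezf1 read 97.7 in KO and 251 in WT at E9.5, 78.4 in KO and 143 in WT at E10.5, then 49.5 in KO and 174 in WT at E12.5, so its probe set kept signal in KO. The X-inactivation transcript Xist read 453 in KO and 725 in WT at E9.5, 11.7 in KO and 573 in WT at E10.5, then 17.6 in KO and 9.87 in WT at E12.5. It was low in KO but high in WT at E10.5, so the sex of the embryos differed between the arrays of that age. Xist was high on both E9.5 arrays and low on both E12.5 arrays, so sex differed between those ages as well. Among the collagen genes, Col4a5 and Col4a6 are X-linked. The deposited values had a median of 14.2 to 37.1 per array.

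With age, more collagen genes fell than rose. Between E9.5 and E12.5, 19 of the 27 tested genes fell and 2 rose in limma's fit with genotype as a block (adjusted p under the threshold of 0.05), where 36.9% of all tested genes fell and 25.9% rose. Between E10.5 and E12.5, 18 fell and 0 rose, against 29.9% and 20.2% of all tested genes. Between E9.5 and E10.5, 5 rose (Col1a1, Col1a2, Col2a1, Col8a2 and Col26a1) and 2 fell (Col14a1 and Col18a1), against 13.8% and 15.1%. The median change over the 27 genes was 0.04 in the first interval, -0.85 in the second and -0.68 over both, while the median of all tested genes was -0.04, -0.11 and -0.14. These age comparisons share arrays and are not independent of each other. In whole tissue, fewer cells of a type cannot be told apart from less RNA per cell.

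The level of the age changes depends on scaling between arrays. Without scaling, the median of all tested genes moved by -0.43 between E9.5 and E10.5, by 0.81 between E10.5 and E12.5 and by 0.40 between E9.5 and E12.5. Of the 26 collagen genes then tested, 8 fell and 5 rose between E9.5 and E12.5, while 1663 genes fell and 5448 rose in all. Between E10.5 and E12.5, 7 collagen genes fell and 6 rose, while 411 genes fell and 8469 rose in all. Between E9.5 and E10.5, 7 collagen genes fell and 2 rose, while 5344 genes fell and 532 rose in all. With the all-gene median subtracted, the collagen median was -0.53 between E9.5 and E12.5 without scaling and -0.54 with quantile normalization. The number of collagen genes below that median was 19 of 26 without scaling and 21 of 27 with quantile normalization.

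**Figure D1:**
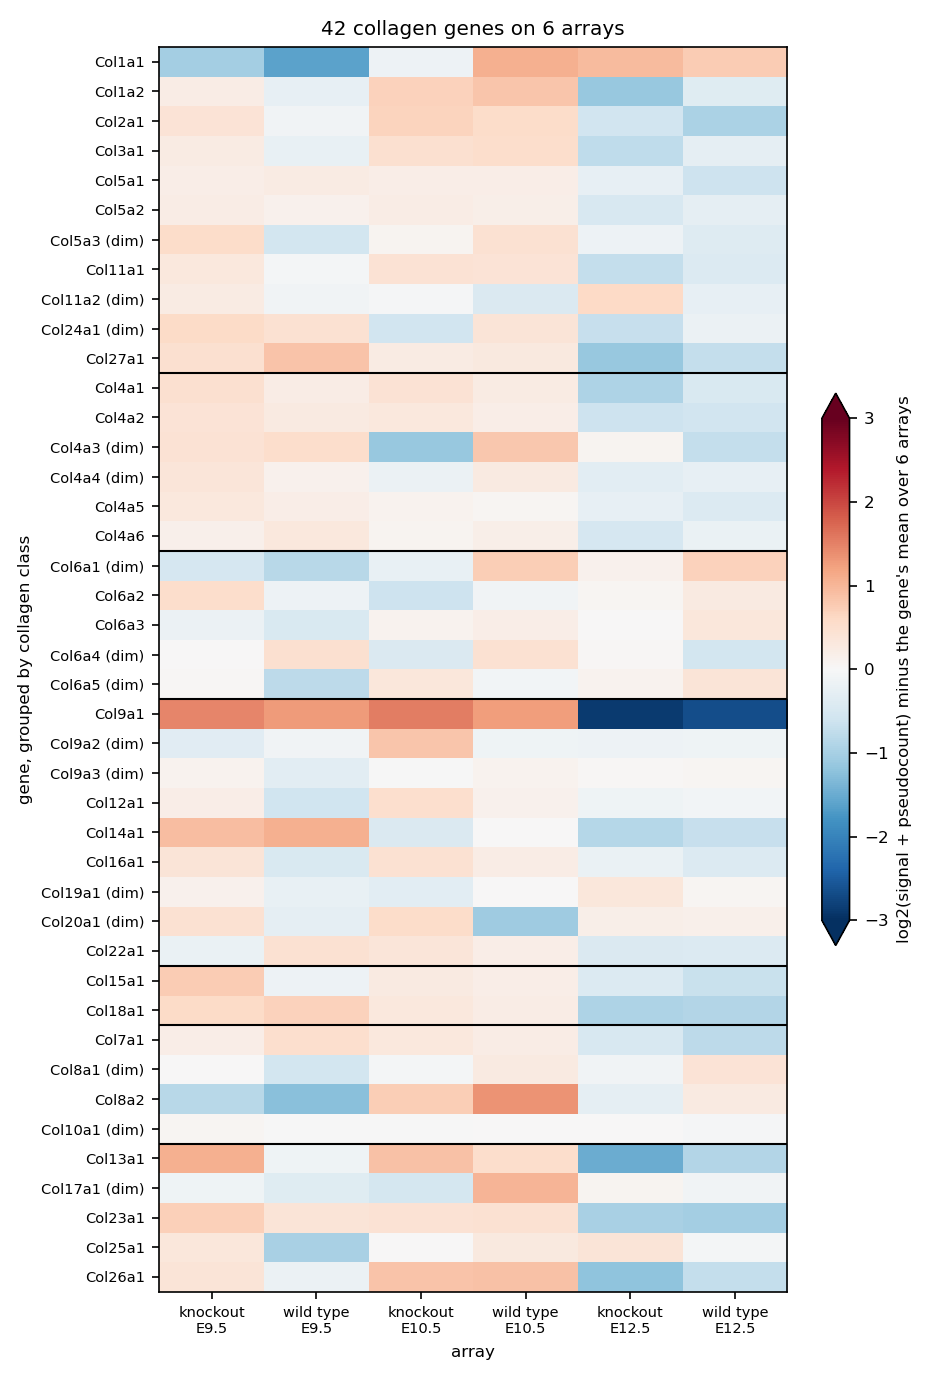
Heat map of the 42 collagen genes (rows, grouped by class and separated by lines; "dim" marks the 15 that were not tested) on the 6 arrays (columns, knockout left of wild type at each age), coloured by log2(signal + pseudocount) minus the gene's mean over the 6 arrays. Col9a1 is darkest at E12.5, and in most fibrillar and type IV rows the pair of E12.5 columns is bluer than the others.

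Among the fibrillar collagens, 8 of 11 genes were tested. Between E9.5 and E12.5, 7 fell and 1 rose with quantile normalization, against 36.9% and 25.9% of all tested genes. Without scaling, though, Col11a1 (0.02) and Col5a1 (0.03) moved slightly the other way. The brightest collagen gene was Col3a1, the single chain of type III collagen, found in pliable connective tissue and vessel walls. Col3a1 signal was 1768 in KO and 1264 in WT at E9.5, 2061 in KO and 2139.7 in WT at E10.5, then 869.7 in KO and 1239 in WT at E12.5. It was highest at E10.5 in both genotypes and lowest at E12.5 in KO. From E9.5 to E12.5 Col3a1 fell by 0.52 ± 0.18 (limma, adjusted p = 0.0267), and from E10.5 it fell by 1.01 ± 0.18 (adjusted p = 0.00121). The E9.5 to E12.5 change was -1.02 on the KO arrays alone and -0.03 on the WT arrays alone. It missed the threshold without scaling (-0.31, adjusted p = 0.0781), with no filter on dim genes (adjusted p = 0.06) and in limma without a variance trend (adjusted p = 0.121).

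Col1a2 encodes the alpha 2 chain of type I collagen, the main fibre of bone, skin and tendon. Col1a2 signal was 608 in KO and 437 in WT at E9.5, 843 in KO and 934 in WT at E10.5, then 235 in KO and 401 in WT at E12.5. Both genotypes were brightest at E10.5 and dimmest at E12.5. Col1a2 rose by 0.78 ± 0.22 between E9.5 and E10.5 (limma, adjusted p = 0.028) and fell by 1.51 ± 0.22 between E10.5 and E12.5 (adjusted p = 0.000437). Over the whole interval it fell by 0.74 ± 0.22 (adjusted p = 0.0158), with changes of -1.35 on the KO arrays alone and -0.12 on the WT arrays alone. The call over the whole interval was lost without scaling (-0.32, adjusted p = 0.149) and in limma without a variance trend (adjusted p = 0.0812). The rise was lost without scaling (0.39, adjusted p = 0.0885), without a variance trend (adjusted p = 0.121), with no filter (adjusted p = 0.0632), over the mean of all probe sets (0.32, adjusted p = 0.268) and in the second probe set (0.33, adjusted p = 0.297).

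The start regions of Col1a2 and Col3a1 are shown because both signals peaked at E10.5. Other collagen genes peaked there too, Col2a1, Col8a2, Col11a1 and Col26a1 among them. The Col3a1 rise between E9.5 and E10.5 did not pass (0.49 ± 0.18, limma, adjusted p = 0.065). Each window runs from 250 bases before the annotated start to 50 bases after it, from RefSeq on GRCm38.p6, and capitals mark matches on either strand to the GC box GGGCGG, the CCAAT box, the TATA motif TATAAA and the SOX core motif ACAAT. The Col1a2 window is chr6:4505368-4505667 on the plus strand and the Col3a1 window chr1:45311288-45311587 on the plus strand.
Col1a2: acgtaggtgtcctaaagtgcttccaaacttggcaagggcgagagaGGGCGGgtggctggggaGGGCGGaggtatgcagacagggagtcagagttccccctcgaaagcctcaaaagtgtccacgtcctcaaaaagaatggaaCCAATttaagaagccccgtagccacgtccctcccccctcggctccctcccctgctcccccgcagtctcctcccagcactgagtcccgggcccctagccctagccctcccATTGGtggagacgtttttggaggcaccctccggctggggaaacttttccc
Col3a1: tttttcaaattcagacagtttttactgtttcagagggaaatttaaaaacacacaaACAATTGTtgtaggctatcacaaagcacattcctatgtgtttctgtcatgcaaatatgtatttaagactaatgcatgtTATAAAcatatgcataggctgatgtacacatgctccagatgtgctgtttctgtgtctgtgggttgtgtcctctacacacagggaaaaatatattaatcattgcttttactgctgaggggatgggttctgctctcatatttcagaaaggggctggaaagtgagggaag
With the start base counted as 0, Col1a2 holds GC boxes from -205 and -188, a CCAAT from -109 and a CCAAT on the other strand from 0. Col3a1 holds neither of these. It has TATAAA from -117 and a pair of ACAAT matches from -195 and -192, on opposite strands and overlapping. Promoter windows were found for 33 of the 42 collagen genes, 36 windows in all. GGGCGG lay in 61.1% of them and in 35.7% of all 32851 windows in the table, CCAAT in 36.1% and 37.4%, TATAAA in 13.9% and 13.6%, and ACAAT in 2.78% and 31.0%.

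Col1a1, the alpha 1 chain of type I collagen, went the other way from its partner Col1a2 in its brightest probe set. Col1a1 signal was 12.8 in KO and 6.50 in WT at E9.5, 29.0 in KO and 75.9 in WT at E10.5, then 69.4 in KO and 60.4 in WT at E12.5. The E9.5 arrays were below the median signal in both genotypes. Col1a1 rose by 2.17 ± 0.39 between E9.5 and E12.5 (limma, adjusted p = 0.001), with 1.77 ± 0.39 of that before E10.5 (adjusted p = 0.0101, or 0.0549 without a variance trend). A second Col1a1 probe set read 52.6 in KO and 40.1 in WT at E9.5, 60.9 in KO and 66.7 in WT at E10.5, then 18.9 in KO and 37.0 in WT at E12.5. After normalization this second probe set was brighter than the first on both E9.5 arrays and dimmer on both E12.5 arrays. In it the change between E9.5 and E10.5 was 0.42 (adjusted p = 0.275), and that between E9.5 and E12.5 was -0.66 and did not pass (adjusted p = 0.0622), so the direction for Col1a1 rests on which probe set is read.

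Col2a1 encodes type II collagen, the main fibre of cartilage, which early neural tissue and notochord also make. Col2a1 signal was 560.4 in KO and 387 in WT at E9.5, 669 in KO and 614 in WT at E10.5, then 277 in KO and 214 in WT at E12.5, higher in KO at each age. It rose by 0.45 ± 0.12 between E9.5 and E10.5 (limma, adjusted p = 0.0204) and fell by 0.92 ± 0.12 over the whole interval (adjusted p = 0.000123). The rise was lost without scaling (0.05, adjusted p = 0.756), in limma without a variance trend (adjusted p = 0.0829) and without genotype as a block (adjusted p = 0.0743).

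Types V and XI are minor fibrillar collagens that set the start and width of type I and type II fibres. Col5a2 signal was 460.5 in KO and 430.4 in WT at E9.5, 466 in KO and 448 in WT at E10.5, then 282 in KO and 328 in WT at E12.5. Col5a1 signal was 152 in KO and 157 in WT at E9.5, 153 in KO and 152 in WT at E10.5, then 110.4 in KO and 83.2 in WT at E12.5. Col11a1 signal was 146 in KO and 110.1 in WT at E9.5, 159.7 in KO and 156 in WT at E10.5, then 68.3 in KO and 86.0 in WT at E12.5. In each of the 3 genes every E12.5 array was below every earlier array. Col5a2 fell by 0.54 ± 0.11 between E9.5 and E12.5 (limma, adjusted p = 0.00257), Col5a1 fell by 0.65 ± 0.16 (adjusted p = 0.00556) and Col11a1 fell by 0.68 ± 0.19 (adjusted p = 0.0099). Without scaling none of the 3 calls held, with -0.09 for Col5a2 (adjusted p = 0.574), 0.03 for Col5a1 (adjusted p = 0.911) and 0.02 for Col11a1 (adjusted p = 0.918), and with trimmed-mean scaling those of Col5a1 (-0.39, adjusted p = 0.0551) and Col11a1 (-0.39, adjusted p = 0.11) were lost. The Col5a2 call was also lost over the mean of its probe sets (-0.26, adjusted p = 0.14), and its second probe set gave 0.01 (adjusted p = 0.952). Col27a1, a fibrillar collagen of developing cartilage, read 136 in KO and 176 in WT at E9.5, 113 in KO and 117 in WT at E10.5, then 39.7 in KO and 55.3 in WT at E12.5. It fell by 1.59 ± 0.17 (adjusted p = 3.73e-05), and its second probe set moved by -1.86. Col11a2, Col24a1 and Col5a3 were too dim to be tested.

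Type IV collagens form the network of basement membranes, and Col4a1 and Col4a2 encode the chains that nearly all basement membranes share. Of 6 type IV genes, 4 were tested. All 4 fell between E9.5 and E12.5 with quantile normalization, where 36.9% of all tested genes fell. Without scaling the changes of Col4a5 (0.01) and Col4a6 (0.11) were above 0 and did not pass. Col4a1 and Col4a2 lie head to head, and their windows are shown because the pair shares 1 start region. The Col4a1 window is chr8:11312777-11313076 on the minus strand and the Col4a2 window chr8:11312555-11312854 on the plus strand. The annotated starts lie 21 bases apart and the windows share 78 bases, chr8:11312777-11312854. The Col4a2 start has the lower coordinate, so the annotated transcripts overlap between the starts.
Col4a1: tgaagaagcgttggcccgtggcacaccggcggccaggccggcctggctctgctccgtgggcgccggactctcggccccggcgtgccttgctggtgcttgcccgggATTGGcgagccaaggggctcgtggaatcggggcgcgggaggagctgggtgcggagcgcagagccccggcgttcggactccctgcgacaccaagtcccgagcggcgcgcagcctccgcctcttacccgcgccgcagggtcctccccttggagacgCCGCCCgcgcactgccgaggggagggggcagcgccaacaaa
Col4a2: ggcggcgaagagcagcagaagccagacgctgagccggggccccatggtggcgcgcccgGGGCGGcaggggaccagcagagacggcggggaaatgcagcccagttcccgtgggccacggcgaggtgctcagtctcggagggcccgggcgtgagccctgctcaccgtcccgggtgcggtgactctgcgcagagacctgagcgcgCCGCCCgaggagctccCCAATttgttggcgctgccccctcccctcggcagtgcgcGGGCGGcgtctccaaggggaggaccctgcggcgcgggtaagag
Capitals mark the same motifs as above. Col4a1 holds a CCAAT on the other strand from -145 and a GC box on the other strand from 9. Col4a2 holds GC boxes from -192 and 7 and, on the other strand, from -48, and a CCAAT from -32. The GC box of Col4a1 and the last one of Col4a2 are the same bases of the shared stretch, read from opposite strands.

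Col4a1 signal was 1362 in KO and 1134 in WT at E9.5, 1317 in KO and 1158 in WT at E10.5, then 508 in KO and 701 in WT at E12.5. Col4a2 signal was 498 in KO and 452 in WT at E9.5, 469 in KO and 429 in WT at E10.5, then 241 in KO and 250.3 in WT at E12.5. In both genes the 4 arrays at E9.5 and E10.5 lay close together and both E12.5 arrays lay well below them. Between E9.5 and E12.5 Col4a1 fell by 1.05 ± 0.15 (limma, adjusted p = 0.000249) and Col4a2 fell by 0.93 ± 0.11 (adjusted p = 5.98e-05). Between E9.5 and E10.5 neither passed, with changes of -0.01 ± 0.15 and -0.08 ± 0.11.

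Col4a5 and Col4a6 encode type IV chains of a more restricted set of basement membranes and lie head to head on the X chromosome, with annotated starts 1343 bases apart. Col4a5 signal was 229 in KO and 211 in WT at E9.5, 196 in KO and 189.9 in WT at E10.5, then 153 in KO and 138 in WT at E12.5. Col4a6 signal was 47.2 in KO and 54.0 in WT at E9.5, 45.1 in KO and 48.0 in WT at E10.5, then 27.5 in KO and 35.6 in WT at E12.5. Both genes were dimmest at E12.5. Col4a5 fell by 0.58 ± 0.13 between E9.5 and E12.5 (limma, adjusted p = 0.00313) and Col4a6 fell by 0.59 ± 0.22 (adjusted p = 0.0424). Besides the loss of both calls without scaling, the Col4a6 call was lost with trimmed-mean scaling (-0.27, adjusted p = 0.325) and with no filter (adjusted p = 0.104), and the second Col4a5 probe set gave -0.13 (adjusted p = 0.595). At E10.5, where Xist differed between genotypes, KO minus WT was 0.05 for Col4a5 and -0.08 for Col4a6. Xist was also high on both E9.5 arrays and low on both E12.5 arrays. For these X-linked genes, embryo sex and age thus cannot be told apart in the E9.5 to E12.5 change. Col4a3 and Col4a4, the chains known best from kidney and lung, were dim, with no array above 24.0.

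Multiplexins are basement membrane collagens that also carry heparan or chondroitin sulfate chains. Col18a1, the source of endostatin, read 760.0 in KO and 823 in WT at E9.5, 627 in KO and 587 in WT at E10.5, then 262 in KO and 270.2 in WT at E12.5. It was lower at each later age in both genotypes. Col18a1 fell by 0.38 ± 0.10 between E9.5 and E10.5 (limma, adjusted p = 0.0211) and fell by 1.55 ± 0.10 between E9.5 and E12.5 (adjusted p = 2.29e-06). The fall before E10.5 was lost in the second probe set (-0.15, adjusted p = 0.366), over the mean of all probe sets (-0.26, adjusted p = 0.0932) and without a variance trend (adjusted p = 0.0827). Col15a1, its relative in vessel and muscle basement membranes, read 81.7 in KO and 40.9 in WT at E9.5, 56.8 in KO and 53.7 in WT at E10.5, then 32.7 in KO and 26.4 in WT at E12.5. KO was higher in each pair, most at E9.5. Col15a1 fell by 0.85 ± 0.26 between E9.5 and E12.5 (adjusted p = 0.0163), a call lost without scaling (-0.16, adjusted p = 0.594) and with trimmed-mean scaling (-0.54, adjusted p = 0.098).

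Of 9 fibril-associated collagens, 5 were tested, and 2 fell between E9.5 and E12.5, where 36.9% of all tested genes fell. Col9a1, a chain of the type IX collagen that coats type II fibres in cartilage and in the eye's vitreous, had the largest drop of the tested collagen genes. Col9a1 signal was 639.9 in KO and 553 in WT at E9.5, 668 in KO and 549.5 in WT at E10.5, then 25.4 in KO and 30.1 in WT at E12.5. The 4 earlier arrays lay between 549.5 and 668, and both E12.5 arrays were near the median signal of 24.0. Col9a1 fell by 4.14 ± 0.14 between E9.5 and E12.5 (limma, adjusted p = 2.71e-07) and its change between E9.5 and E10.5 was 0.03 ± 0.14. That fall was the 13th lowest of 11091 changes. In the second, dimmer probe set the change was -2.5. RefSeq annotates 2 starts for Col9a1, and both windows are shown because the files do not say from which start the measured transcript runs. They are chr1:24177360-24177659 and chr1:24194953-24195252, on the plus strand.
Col9a1 upstream start: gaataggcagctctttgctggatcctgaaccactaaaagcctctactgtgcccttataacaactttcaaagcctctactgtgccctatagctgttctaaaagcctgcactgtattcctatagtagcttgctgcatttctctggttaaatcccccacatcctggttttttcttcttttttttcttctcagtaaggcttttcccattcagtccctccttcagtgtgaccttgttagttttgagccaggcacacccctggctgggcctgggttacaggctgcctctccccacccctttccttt
Col9a1 downstream start: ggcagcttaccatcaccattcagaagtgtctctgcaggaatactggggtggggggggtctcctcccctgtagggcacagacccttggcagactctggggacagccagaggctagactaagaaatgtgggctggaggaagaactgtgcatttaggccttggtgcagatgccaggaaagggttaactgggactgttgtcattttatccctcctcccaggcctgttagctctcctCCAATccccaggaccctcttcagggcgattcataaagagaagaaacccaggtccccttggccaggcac
The upstream window held none of the 4 motifs and the downstream window held 1, a CCAAT from -18, in capitals.

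Col14a1, which binds type I fibres, read 52.3 in KO and 58.1 in WT at E9.5, 16.2 in KO and 24.6 in WT at E10.5, then 10.4 in KO and 12.5 in WT at E12.5. It fell by 1.21 ± 0.28 between E9.5 and E10.5 (limma, adjusted p = 0.0126) and fell by 1.78 ± 0.28 between E9.5 and E12.5 (adjusted p = 0.00045). Its signal was highest at E9.5 and close to or below the median later. Col12a1, Col16a1 and Col22a1, the other tested genes of the class, did not pass between E9.5 and E12.5, with changes of 0.09 ± 0.31, -0.27 ± 0.24 and -0.55 ± 0.28. Col9a2, Col9a3, Col19a1 and Col20a1 were too dim to be tested. Col9a2 and Col9a3 encode the partner chains of Col9a1.

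Transmembrane collagens span the cell surface with their helix outside. Col13a1, found at cell junctions and at the neuromuscular synapse, read 98.7 in KO and 39.0 in WT at E9.5, 86.0 in KO and 65.7 in WT at E10.5, then 11.5 in KO and 20.7 in WT at E12.5. Col23a1, a related transmembrane collagen, read 135 in KO and 107 in WT at E9.5, 111 in KO and 113 in WT at E10.5, then 37.4 in KO and 36.0 in WT at E12.5. Col26a1, a secreted collagen outside the main classes, read 139 in KO and 92.6 in WT at E9.5, 196 in KO and 198 in WT at E10.5, then 41.7 in KO and 61.4 in WT at E12.5. In all 3 genes both E12.5 arrays were the dimmest. Between E9.5 and E12.5 Col13a1 fell by 1.65 ± 0.37 (limma, adjusted p = 0.00345), Col23a1 fell by 1.55 ± 0.18 (adjusted p = 5.95e-05) and Col26a1 fell by 1.07 ± 0.23 (adjusted p = 0.00274). Col26a1 had risen by 0.76 ± 0.23 between E9.5 and E10.5 (adjusted p = 0.0341), and its E9.5 to E12.5 call was lost without scaling (-0.35, adjusted p = 0.166) and over the mean of all its probe sets (-0.67, adjusted p = 0.0807). The rise of Col26a1 was lost without scaling (0.44, adjusted p = 0.0952), over the mean of all probe sets (0.41, adjusted p = 0.352), with no filter (adjusted p = 0.0744) and without a variance trend (adjusted p = 0.0976). Col25a1, a transmembrane collagen of neurons, read 40.5 in KO and 12.3 in WT at E9.5, 30.9 in KO and 38.8 in WT at E10.5, then 42.1 in KO and 29.4 in WT at E12.5. It did not pass between E9.5 and E12.5 (0.49 ± 0.36, adjusted p = 0.263).

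Col8a2 makes a short-chain network collagen known from the cornea and vessel walls. Col8a2 signal was 12.8 in KO and 7.81 in WT at E9.5, 51.2 in KO and 80.6 in WT at E10.5, then 22.0 in KO and 35.1 in WT at E12.5. Both genotypes were below the median at E9.5 and peaked at E10.5. Col8a2 rose by 2.09 ± 0.32 between E9.5 and E10.5 (limma, adjusted p = 0.00224), fell by 1.04 ± 0.32 after that (adjusted p = 0.0234), and was 1.05 ± 0.32 higher at E12.5 than at E9.5 (adjusted p = 0.0179). The fall after E10.5 was lost without scaling (0.00, adjusted p = 0.994), with trimmed-mean scaling (-0.75, adjusted p = 0.0805) and with no filter (adjusted p = 0.0609). Col7a1, the anchoring fibril of skin, read 44.6 in KO and 57.5 in WT at E9.5, 49.0 in KO and 46.1 in WT at E10.5, then 25.8 in KO and 19.5 in WT at E12.5. It fell by 0.98 ± 0.25 between E9.5 and E12.5 (adjusted p = 0.00747), a call lost without scaling (-0.34, adjusted p = 0.292). Type VI collagens, which form beaded filaments around cells, gave no call. Their tested genes Col6a2 and Col6a3 changed by -0.02 ± 0.27 and 0.50 ± 0.25 between E9.5 and E12.5.

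**Figure D2:**
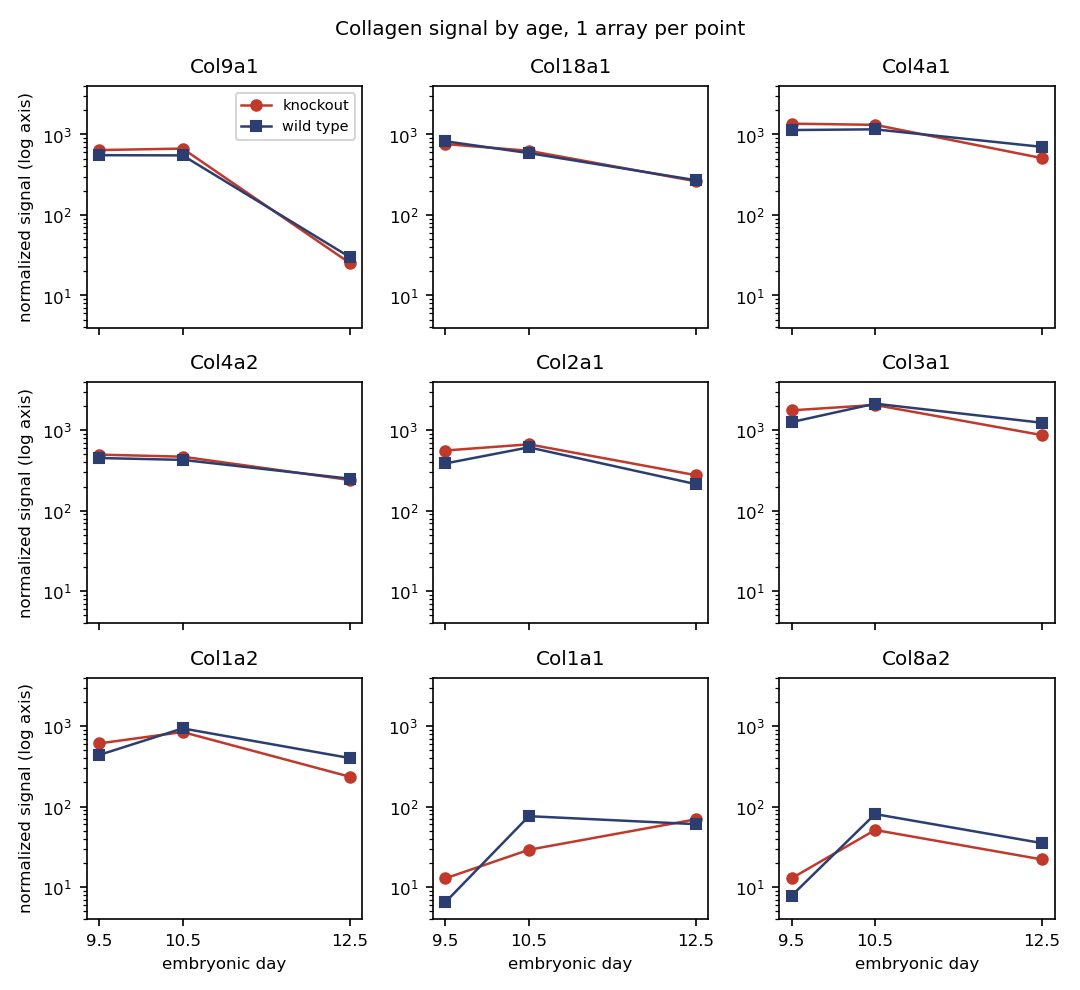
Normalized signal (log axis) of 9 collagen genes against embryonic day, with knockout as circles and wild type as squares, 1 array per point and no error bars. Col9a1 drops between E10.5 and E12.5 in both genotypes, Col3a1 and Col1a2 peak at E10.5, and Col1a1 and Col8a2 start low at E9.5.

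Of the 27 tested collagen genes, 19 had a second probe set. Of these, 15 passed between E9.5 and E12.5, and in 13 the second probe set moved the same way. The exceptions were Col1a1 (2.17 in the brightest, -0.66 in the second) and Col5a2 (-0.54 in the brightest, 0.01 in the second). The second probe set of Col1a2 changed by -1.94, against -0.74 in the brightest.

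**Figure D3:**
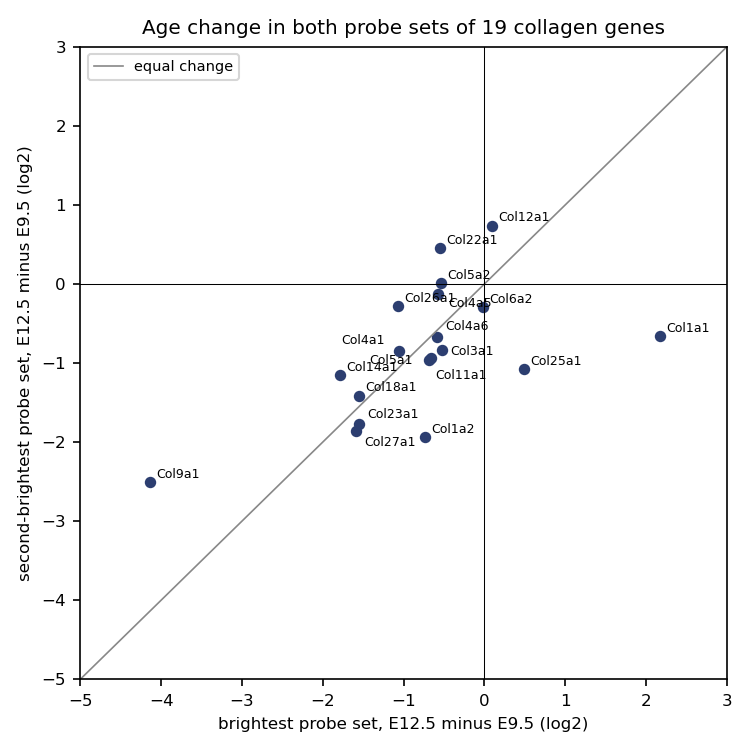
Change between E9.5 and E12.5 (log2) in the brightest probe set (x axis) and the second-brightest (y axis) of the 19 tested collagen genes that have both, with the line of equal change. Most points lie in the lower left, while Col1a1 lies far to the right at 2.17 with a second value of -0.66.

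Between genotypes, no collagen gene passed the test across ages. In limma's fit with age as a block, 0 of the 27 tested genes passed, where 0.0721% of all tested genes did. At an unadjusted p under 0.05 there was 1 collagen gene, and 511 genes or 4.61% in all. The collagen gene was Col2a1, which was higher in KO by 0.34 ± 0.10 (adjusted p = 0.943), with KO above WT at 3 of 3 ages. In all, 4 of the 27 tested genes were higher in KO at all 3 ages and 3 were lower, against 13.1% and 11.5% of all tested genes. The median difference across ages was 0.01 over the 27 genes and 0.01 over all tested genes.

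At single ages there was 1 array per genotype, so differences have no replicate check and no test. A gene was counted if 1 array read at least 2-fold above the other and the brighter one exceeded 24.0. At E9.5, 3 of 42 collagen genes were higher in KO (Col13a1, Col25a1 and Col5a3) and 0 were lower, where 0.874% of all genes were higher and 0.742% lower. At E10.5, 0 were higher and 1, Col1a1, was lower, against 0.813% and 1.1%. At E12.5, 0 were higher and 0 lower, against 0.319% and 0.236%. Col13a1 differed by 1.21 at E9.5. Col25a1 differed by 1.32 at E9.5, but by 0.15 in its second probe set. Col5a3, a minor type V chain, read 26.2 in KO and 8.57 in WT at E9.5, 17.1 in KO and 24.1 in WT at E10.5, then 13.6 in KO and 10.5 in WT at E12.5. Its difference at E9.5 was 1.12 in the brightest probe set and -0.14 in the second. Col1a1 differed by -1.21 at E10.5 and by -0.12 in its second probe set.

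Smaller differences leaned one way at E9.5 and the other at E12.5. Of the 27 tested genes, those higher in KO numbered 20 on E9.5, 15 on E10.5 and 9 on E12.5, where 52.8%, 47.8% and 53.7% of all tested genes were higher. Over all 42 genes the counts were 32, 19 and 17, against 51.5%, 48.1% and 52.5% of all genes. Over the 27 genes the median difference was 0.32, 0.04 and -0.16 in age order, against 0.01, -0.01 and 0.02 for all tested genes. Without scaling these medians were 0.41, 0.28 and 0.05, and 0.32, 0.03 and -0.17 after subtraction of the all-gene median, which itself moved by 0.10, 0.26 and 0.22. Higher in KO at E9.5 and lower at E12.5 were 13 of the 27, and 24.6% of all tested genes. The summed signal of the 42 genes was 8412 in KO and 6913 in WT at E9.5, 8779.9 in KO and 8644 in WT at E10.5, then 3744 in KO and 4494 in WT at E12.5, a KO over WT ratio of 1.22, 1.02 and 0.833. Such a sum weighs the brightest probe sets most, here Col3a1, Col4a1 and Col1a2, and is not an amount of RNA.

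The 3 brightest collagen genes, which weigh most in that sum, were higher in KO at E9.5 and lower at E12.5. For Col3a1, KO minus WT was 0.48 (E9.5), -0.05 (E10.5) and -0.51 (E12.5), with second probe set values of 0.63 (E9.5), -0.28 (E10.5) and -0.61 (E12.5). For Col1a2 it was 0.47 (E9.5), -0.15 (E10.5) and -0.75 (E12.5), with second probe set values of 0.57 (E9.5), 0.20 (E10.5) and -0.67 (E12.5). For Col4a1 it was 0.26 (E9.5), 0.18 (E10.5) and -0.46 (E12.5), with second probe set values of 0.46 (E9.5), 0.03 (E10.5) and -0.28 (E12.5). Col4a2, which shares a start region with Col4a1, showed 0.14 (E9.5), 0.13 (E10.5) and -0.05 (E12.5). Col18a1 stayed within 0.11 of 0, with -0.11 (E9.5), 0.09 (E10.5) and -0.04 (E12.5). The fibrillar class had medians of 0.43, -0.02 and -0.26 over 8 tested genes, and the type IV class 0.13, 0.09 and -0.18 over 4.

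The change of the genotype difference with age was tested as a slope per embryonic day, with 1 residual degree of freedom before moderation. No collagen gene passed in limma, and 0% of all tested genes did. At an unadjusted p under 0.05 there were 5 collagen genes, and 405 genes or 3.65% in all. These were Col1a2, Col3a1, Col4a1, Col13a1 and Col26a1, all with negative slopes. The smallest p belonged to Col1a2, with -0.39 ± 0.07 per day (adjusted p = 0.567), and Col3a1, with -0.32 ± 0.06 per day (adjusted p = 0.567). When second-brightest probe sets replaced the brightest, the Col1a2 slope was -0.42 and passed (limma, adjusted p = 0.0145). The median slope was -0.15 over the 27 genes and 0.00 over all tested genes.

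**Figure D4:**
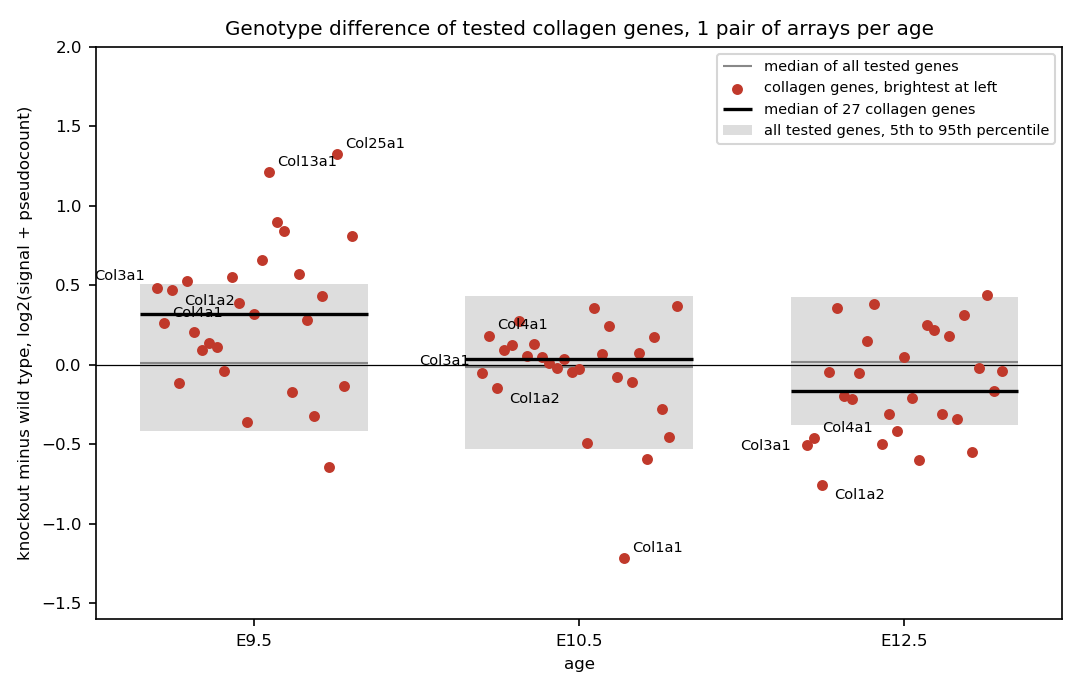
Knockout minus wild type (log2) for each of the 27 tested collagen genes at the 3 ages (points, brightest gene at left), with their median (black line) and the median and 5th to 95th percentile of all tested genes (grey line and band), from 1 pair of arrays per age. The collagen median lies above the all-gene median at E9.5 (0.32), close to it at E10.5 (0.04) and below it at E12.5 (-0.16).

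The genes that build collagen did not share one course. Of 16 tested genes for folding and modification, 9 fell and 2 rose between E9.5 and E12.5, where 36.9% of all tested genes fell and 25.9% rose. Serpinh1, the collagen chaperone, read 552 in KO and 507 in WT at E9.5, 1184 in KO and 1359 in WT at E10.5, then 882 in KO and 946 in WT at E12.5, and rose by 0.78 ± 0.10 (limma, adjusted p = 9.93e-05). Ppib, a prolyl isomerase of the collagen modification complex, rose by 0.49 ± 0.07 (adjusted p = 0.000262), while P4hb, the beta subunit of prolyl hydroxylase, fell by 0.47 ± 0.07 (adjusted p = 0.000285). The second Ppib probe set, of similar brightness, changed by -0.05, so its rise rests on 1 probe set. The median KO minus WT of the 16 genes was -0.01, -0.05 and -0.13 at the 3 ages. Of 7 tested genes for propeptide removal and cross-linking, 3 fell (Pcolce, Pcolce2 and Adamts3) and 1 rose (Bmp1), beside the same shares of all tested genes. The median KO minus WT of the 7 genes was 0.25, -0.12 and -0.06 in age order. Pcolce, which enhances removal of the C-terminal propeptide, read 582 in KO and 390.2 in WT at E9.5, 659 in KO and 627 in WT at E10.5, then 49.6 in KO and 73.8 in WT at E12.5. Pcolce fell by 2.85 ± 0.21 (adjusted p = 4.31e-06), and its KO minus WT was 0.57 (E9.5), 0.07 (E10.5) and -0.52 (E12.5). Bmp1, the protease it assists, rose by 0.93 ± 0.18 (adjusted p = 0.00175).

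Among partners of collagen, Lum, a proteoglycan that binds fibrillar collagen, read 309 in KO and 258 in WT at E9.5, 436 in KO and 489.6 in WT at E10.5, then 291 in KO and 478 in WT at E12.5. It did not pass between E9.5 and E12.5 (0.39 ± 0.19, limma adjusted p = 0.0932), and its KO minus WT was 0.25 (E9.5), -0.17 (E10.5) and -0.71 (E12.5). Of the 5 tested genes for collagen-binding proteoglycans and Sparc, 1 fell (Bgn, biglycan) and 1 rose (Dcn, decorin). Between E9.5 and E12.5, 36.9% of all tested genes fell and 25.9% rose. Dcn rose by 1.96, with -0.05 in a second, dim probe set. The median KO minus WT of the 5 genes was 0.26, -0.18 and 0.01 in age order. Sparc, the brightest of them, showed 0.13 (E9.5), -0.59 (E10.5) and 0.01 (E12.5). Of 3 tested collagen receptors, 2 rose (Ddr1 and Itgb1) and 1 fell (Ddr2), and their median KO minus WT was 0.09, 0.01 and -0.03. Ddr1, the receptor of epithelia and neural tissue, rose by 1.16 ± 0.14 (adjusted p = 8.5e-05). Its KO minus WT was 0.04 (E9.5), -0.64 (E10.5) and 0.00 (E12.5). Ddr2, the fibrillar collagen receptor of mesenchyme, read 189 in KO and 129 in WT at E9.5, 229 in KO and 228 in WT at E10.5, then 29.2 in KO and 57.1 in WT at E12.5. Ddr2 fell by 1.77 ± 0.27 (adjusted p = 0.000338), and its KO minus WT was 0.53 (E9.5), 0.01 (E10.5) and -0.83 (E12.5). Of 12 tested laminin, nidogen and other basement membrane genes, 8 fell and 1 rose. Lamb1, the laminin beta 1 chain, fell by 2.09 ± 0.11 (adjusted p = 7.84e-07), and Agrn, agrin, rose by 0.80 ± 0.09 (adjusted p = 4.84e-05). In none of these lists did a gene pass the genotype test or the slope test.

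To set the collagen genes beside the mesenchyme around the forebrain, markers of the tissues that a dissection could hold were read on the same arrays. Of 11 tested head mesenchyme markers, 10 fell and 1 (Tbx18) rose between E9.5 and E12.5, with a median of -2.68. Of all tested genes, 36.9% fell and 25.9% rose. Alx1, a homeobox gene of frontonasal mesenchyme, read 579 in KO and 318 in WT at E9.5, 671 in KO and 462 in WT at E10.5, then 3.55 in KO and 16.5 in WT at E12.5. Twist1, a mesenchymal regulator, read 488 in KO and 406 in WT at E9.5, 464 in KO and 361 in WT at E10.5, then 8.29 in KO and 18.6 in WT at E12.5. At E12.5 both were below the median signal of 24.0. Prrx1, a homeobox gene of limb and head mesenchyme and the brightest of the list, read 628 in KO and 490.3 in WT at E9.5, 659.8 in KO and 475 in WT at E10.5, then 116 in KO and 136 in WT at E12.5. Pdgfra, a growth factor receptor of mesenchyme, read 417 in KO and 292 in WT at E9.5, 465 in KO and 415 in WT at E10.5, then 51.5 in KO and 85.9 in WT at E12.5. Both fell with age, and in these probe sets stayed above 24.0 on every array. Foxc1, a regulator of head mesenchyme, also fell and still read 53.7 in KO and 61.5 in WT at E12.5, while Tbx18 read 69.7 in KO and 104 in WT at that age. The summed signal of 15 head mesenchyme markers was 3746 in KO and 2800.1 in WT at E9.5, 4131 in KO and 3633 in WT at E10.5, then 457 in KO and 691 in WT at E12.5. Their median KO minus WT was 0.41, 0.09 and -0.67 in age order, with 10, 8 and 0 of the 11 higher in KO, and no slope passed (lowest adjusted p = 0.383 in limma). These medians had the same sign as the collagen median at each age, as did those of the mural cell markers below. Their part in the collagen differences was not tested, nor was the source of the collagen RNA.

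Other tissues were measured beside them. For the counts of falls and rises given next, between E9.5 and E12.5, 36.9% of all tested genes fell and 25.9% rose. Of 12 endothelium markers, 7 fell and 1 (Pecam1) rose with age, and their median KO minus WT was 0.03, 0.10 and 0.05. Their summed signal was 1122 in KO and 1069.8 in WT at E9.5, 1191 in KO and 1087 in WT at E10.5, then 725 in KO and 707 in WT at E12.5. Of 5 tested mural cell markers, 2 fell (Pdgfrb and Notch3) and 1 rose (Rgs5), and their median KO minus WT was 0.14, 0.03 and -0.23. Pdgfrb, the receptor of pericytes and mesenchyme, fell by 1.84 ± 0.16 (limma, adjusted p = 1.31e-05), while Rgs5, a pericyte gene, rose by 3.09 ± 0.26 (adjusted p = 8.42e-06). Notch3 changed by -0.70 in its brightest probe set and by 0.20 in the second. Of 10 tested surface ectoderm markers, 9 fell and 0 rose, and their median KO minus WT was 0.07, 0.35 and 0.04. At E12.5, 6 of the 10 were higher in KO. The summed signal over 12 genes was 2142 in KO and 1893 in WT at E9.5, 1910.4 in KO and 1487 in WT at E10.5, then 148 in KO and 162 in WT at E12.5. Of 3 tested cartilage markers, 2 fell (Hapln1 and Matn3) and 1 rose (Sox9). Hapln1, the link protein of cartilage matrix, read 338 in KO and 352 in WT at E9.5, 233 in KO and 243 in WT at E10.5, then 15.4 in KO and 16.0 in WT at E12.5. Hapln1 fell by 3.98 ± 0.15 (adjusted p = 2.71e-07), while Sox9, the regulator of Col2a1 in cartilage and a gene of neural progenitors, rose by 1.49 ± 0.21 (adjusted p = 0.000236). The second Sox9 probe set changed by -0.04, so this rise too was seen in the brightest probe set and not in the second. Acan, the main cartilage proteoglycan, was too dim to be tested. All 10 tested neuron markers and 9 of 10 neural progenitor markers rose with age. The neuron markers had a median KO minus WT of 0.32, -0.72 and 0.06 in age order, with 9, 1 and 7 of the 10 higher in KO. The neural progenitor markers had medians of 0.23, -0.35 and 0.15, with 8, 2 and 9 of the 10 higher in KO. At E9.5 the collagen, head mesenchyme, mural cell, neuron and neural progenitor medians were thus all above 0. At E12.5 the collagen, head mesenchyme and mural cell medians were below 0 and both neural medians above it. Also below 0 at E12.5 were the medians for folding and modification (-0.13), basement membrane genes (-0.13), and propeptide removal and cross-linking (-0.06). The part of tissue make-up in these marker changes and in the collagen changes was not tested.

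**Figure D5:**
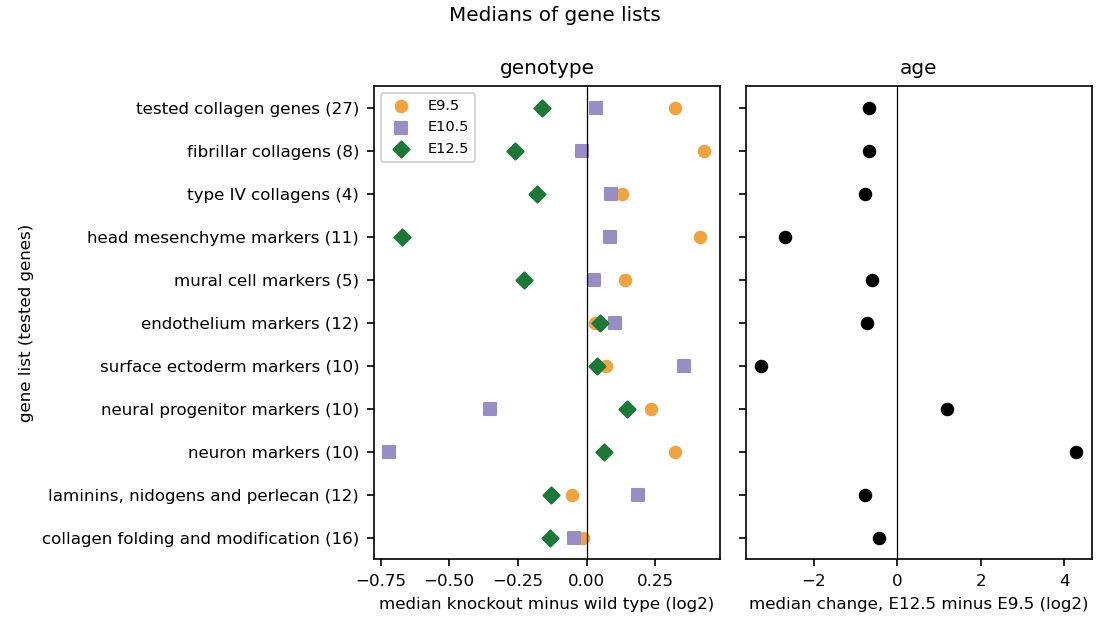
Median knockout minus wild type (log2, left; circles E9.5, squares E10.5, diamonds E12.5) and median change between E9.5 and E12.5 (log2, right) over the tested genes of each list, with their number in brackets. Tested collagen genes, head mesenchyme markers and mural cell markers lie right of 0 at E9.5 and left of 0 at E12.5. Neuron and neural progenitor markers lie right of 0 at both ages. With age the head mesenchyme median of -2.68 lies further left than the collagen median of -0.68.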

How the data were processed

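Groups follow the labelled genotype and age of the 6 samples, 1 array each. Per the labels' protocols, total RNA was labelled with biotin in a one-cycle procedure. The authors deposited a linear intensity for each probe set, and MAS5 is named in the submitters' processing notes. No scaling target, detection call or genome build is given in the labels or the file. Gene names came from the platform annotation: 34958 have 1 symbol, 932 several and 9211 none listed, and 34754 matched an Entrez identifier with 0 symbols changed.

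The deposited values were quantile-normalized with limma 3.58.1 in R 4.3.3 and log2-transformed after a pseudocount of 6.50 was added, equal to the deposited values' lower quartile. Of 18194 genes, 11091 had a mean log2 value over the median probe set and were tested. limma (lmFit and eBayes with a trend) was fitted for genotype with age as a block and for age with genotype as a block, with 2 residual degrees of freedom (9.40 after moderation), and for the slope of the genotype difference with 1 (8.21 after moderation). P-values were adjusted by Benjamini-Hochberg at 0.05 over the tested genes. With 1 array per group these reflect no more than the spread among 6 arrays, whose number limits the precision. Errors are limma's moderated SE over 6 arrays. The fits were tested on simulated data.

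The members, the 7 collagen classes and the 12 pathway and marker lists were chosen with earlier results of these data known. Each collagen gene may be named, with values on all arrays for those that pass a test, differ 2-fold at an age or are among the 12 brightest. From the other lists up to 4 genes with the largest mean signal may be named. Among head mesenchyme markers Pdgfra (mean signal 288) was named outside this rule, and Snai2 (302) was not named. Genes named in brackets beside a count, Dcn, Itgb1, Tbx18 and Pecam1 among them, and Foxc1 were chosen after their values were seen. Col6a6, Col21a1 and Col28a1 were not analysed here. Promoter windows came from RefSeq and were matched by symbol. The alternatives were other scalings, pseudocounts, probe set choices, filters, fits, fold thresholds and leaving out each age.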

Additional observations from a re-analysis of the deposited data

Results flagged for a closer look

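For 4 collagen genes the genotype difference at one age was at least 2-fold while at another age the arrays differed in the opposite direction. Col13a1 was 1.21 higher in KO at E9.5 and -0.60 at E12.5 (log2, KO minus WT). It has a single probe set, and its slope with age did not pass (-0.59 ± 0.16 per day, limma, adjusted p = 0.999). Col1a1 was -1.21 at E10.5, against 0.57 at E9.5 and 0.18 at E12.5, and its second probe set gave -0.12 at E10.5. Col25a1, a transmembrane collagen of neurons, was 1.32 at E9.5 and -0.28 at E10.5, while its second probe set gave 0.15 and -0.31. Col5a3 was 1.12 at E9.5 and -0.37 at E10.5, and its second probe set gave -0.14 and 0.09. Apart from the slope, the difference between ages was not tested, since each value comes from 1 pair of arrays.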

How the results depend on the processing

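The labels carry no replicate numbers and each group has 1 array, so arrays were paired only by age. The genotype fit, with age as a block, compares KO and WT within each age. The age fits take genotype as the block. Under every alternative run, 0 collagen genes passed the genotype test across ages in limma. Of all tested genes, 8 passed in the main fit, and 7 higher and 4 lower passed without scaling. In the slope test 1 collagen gene passed, Col1a2 with second-brightest probe sets (1 lower). Without scaling, collagen genes between E9.5 and E10.5 were 2 higher and 7 lower, between E10.5 and E12.5 6 higher and 7 lower, and between E9.5 and E12.5 5 higher and 8 lower. At E10.5 their median KO minus WT was 0.28, at E12.5 it was 0.0467 with 14 genes higher, and 1 gene was at least 2-fold higher at E12.5. Without scaling these changes took the other sign. They are, between E10.5 and E12.5, Col11a1 0.0555, Col15a1 0.28, Col4a2 0.0407, Col4a5 0.58, Col5a1 0.39, Col5a2 0.29, Col7a1 0.12 and Col8a2 0.0026. Between E9.5 and E12.5 they are Col11a1 0.0247, Col4a5 0.0105, Col4a6 0.11 and Col5a1 0.025, and across ages Col1a2 0.0942 and Col3a1 0.20 for genotype. The all-gene median shift between unscaled arrays bears on these values. With trimmed-mean scaling 1 collagen gene rose between E10.5 and E12.5. With a pseudocount of 1, at least 2-fold differences were 2 lower at E10.5 and 1 higher at E12.5, and with 32 they were 0 higher at E9.5 and 0 lower at E10.5. Over the mean of all probe sets, 3 genes rose and 1 fell between E9.5 and E10.5, 1 was 2-fold higher at E9.5, 0 were 2-fold lower at E10.5 and 5 were higher at E12.5. With second-brightest probe sets, 2 rose between E9.5 and E10.5, 1 rose between E9.5 and E12.5, 1 was 2-fold higher at E9.5, and the sign turned for Col1a1 (-0.66) and Col5a2 (0.0137) between E9.5 and E12.5, Col1a2 (0.0322) for genotype and Col5a3 (-0.14) at E9.5. Without a filter 3 genes rose between E9.5 and E10.5, and without a variance trend 1 rose and 1 fell. At a 1.5-fold threshold the counts were 7 higher and 1 lower at E9.5, 3 lower at E10.5, and 1 higher and 1 lower at E12.5. No all-gene share is given here for the 2-fold and 1.5-fold counts of the alternatives, so nothing is concluded from them about collagen genes. The median change between E9.5 and E12.5 was -1.0 on the KO arrays alone and -0.54 on the WT arrays alone. Leaving out 1 age at a time, 1 gene rose between E10.5 and E12.5 without the E9.5 pair. The genotype difference ran from -0.45 to 0.16 for Col1a2 and from -0.28 to 0.21 for Col3a1, lowest without the E9.5 pair and highest without the E12.5 pair, where it was -0.14 and -0.03 over all 3 ages. Apart from the construction of each alternative, the cause was not tested. Signals below 24.0 limit what can be said of the 15 untested genes.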
